A study of Mus musculus with 8 samples.

Results

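The NADPH oxidase genes Cybb, Cyba, Ncf1, Ncf4, Rac1 and Rac2, the catalase gene Cat and the peptidylarginine deiminase gene Padi4 were compared between bone marrow and small intestine. The cells had been sorted as eosinophils, the granulocytes of allergic and parasite responses, a label that the bone marrow libraries bear out poorly (below). These genes were taken by symbol, as a choice made with earlier results of these data known, and are 8 of the 38392 genes measured. Cells of untreated wildtype C57/BL6 female mice were sorted by flow cytometry, 4 libraries for each tissue, and no gene had been deleted or added in any of them. Bone marrow cells were CD11b+, SiglecF+, negative for Ly6G and Ly6C and high in side scatter, and intestinal cells were CD11b+, SiglecF+, negative for MHC-II and likewise high in side scatter. Bone marrow was flushed and sorted without enrichment, whereas intestinal cells passed through EDTA, warm collagenase digestion and CD11b microbeads, so that tissue and handling cannot be told apart. The methods of the study give a range of ages of some weeks for all its mice, matched within experiments, and no age for a single library.

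The phagocyte NADPH oxidase moves electrons from NADPH across a membrane onto oxygen and so makes superoxide. Its catalytic core is flavocytochrome b558, a pair of the membrane proteins gp91phox (Cybb) and p22phox (Cyba). It works only after cytosolic proteins, among them p47phox (Ncf1) and p40phox (Ncf4), and a Rac GTPase have joined it at the membrane. Superoxide dismutates to hydrogen peroxide, which catalase breaks down to water and oxygen. Padi4 encodes an enzyme that turns arginines of histones into citrulline and acts in the release of extracellular DNA traps, for which the oxidase can be needed. In eosinophils the oxidase supplies oxidants to eosinophil peroxidase.

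Upstream sequence was at hand for 5 of the 8 genes (RefSeq, GRCm38.p6), and those of the membrane pair and of Ncf1, the member with the largest difference between the tissues, are printed here to show what lay before genes that are used together in the enzyme. Each is the 250 bases before the annotated start, read 5′ to 3′ on the strand of the gene. That of Cybb was chrX:9469325-9469574 on the minus strand, that of Cyba chr8:122432941-122433190 on the minus strand, and that of Ncf1 chr5:134229626-134229875 on the minus strand. Capitals mark matches to AGATAA or TGATAA, forms of the GATA factor motif, on either strand.
Cybb: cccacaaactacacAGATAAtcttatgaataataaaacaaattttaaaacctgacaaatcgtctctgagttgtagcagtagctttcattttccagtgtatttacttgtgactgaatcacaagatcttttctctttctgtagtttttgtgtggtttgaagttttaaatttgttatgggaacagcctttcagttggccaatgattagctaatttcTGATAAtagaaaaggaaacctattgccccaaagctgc
Cyba: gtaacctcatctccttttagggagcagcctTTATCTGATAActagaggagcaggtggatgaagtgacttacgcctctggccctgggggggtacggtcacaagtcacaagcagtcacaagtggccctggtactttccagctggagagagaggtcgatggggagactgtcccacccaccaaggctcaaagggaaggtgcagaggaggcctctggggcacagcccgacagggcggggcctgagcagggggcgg
Ncf1: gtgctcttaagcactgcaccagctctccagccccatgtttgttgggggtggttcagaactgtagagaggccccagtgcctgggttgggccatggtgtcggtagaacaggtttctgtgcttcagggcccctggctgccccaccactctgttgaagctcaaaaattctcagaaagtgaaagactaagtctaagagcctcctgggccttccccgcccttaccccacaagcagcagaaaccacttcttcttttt
Cybb held AGATAA 236 bases and TGATAA 37 bases before its start, both on the strand of the gene. In Cyba, AGATAA on the opposite strand, 220 bases before the start, and TGATAA, 215 bases before it, shared 1 base. Neither letter string occurred before Ncf1, Cat or Padi4. AGATAA was present in 9.99% and TGATAA in 7.94% of 32851 windows of the same length. AGGAAG, the core of PU.1 and other ETS factor sites, was found on the opposite strand 141 bases before Cat and 9 bases before Padi4, and in 29.5% of all windows. The other motifs searched on both strands were TTGCNNAA for C/EBP (9.56% of windows), GCGTG for the AHR and ARNT pair (28.2%) and TGACNNNGC for NRF2 and MAF (10.2%), and none of the 5 windows held them. The bases directly after the Cyba window were not found in a GENCODE transcript of Cyba, whereas those after the other 4 were found in transcripts of their genes. On the minus strand the GENCODE span of Ncf1 began at 134229625, directly beside its window, and that of Cyba at 122432930, just short of its window. How near the windows lay to the starts of single GENCODE transcripts was not tested. The Cybb window lay within the GENCODE span of the gene (9435252 to 9487771).

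A normalised read count is here the number of reads on a gene over the size factor of the library. Differences are in deposited log2 units, positive where small intestine was higher, with the standard error (SE) of limma. Adjusted p-values are limma's after Benjamini-Hochberg adjustment over all 38392 genes, with a threshold of 0.05. The libraries held 11508002 to 21289164 reads in genes, and the members 422 to 31791 reads in a library, so that all 8 passed the mean of 10 reads reached by 16215 genes. The column names gave the tissue of each library but not the mouse, and libraries are named by them. The study used 4 mice for each tissue, and p-values measure the spread between these libraries.

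The label of the sorted cells was checked against 8 eosinophil markers, of which 5 were higher and 3 were lower in small intestine. Together they made up 0.0193% to 0.0296% of each bone marrow library and 0.216% to 0.269% of each intestinal library. In bone marrow this was far below the sum of the neutrophil precursor markers given below, so the differences that follow need not be changes within eosinophils. The receptor genes Ccr3 and Il5ra had 70.9 ± 25.7 and 11.04 ± 5.31 normalised counts (SD, n = 4) in the bone marrow libraries, against 16351 ± 2623 and 1107 ± 222 in those of small intestine. The granule genes Epx and Prg2 had 349.9 ± 40.2 and 1831 ± 396 in bone marrow, against 20.6 ± 9.06 and 146.6 ± 40.7. Mpo, the peroxidase of neutrophils and their precursors, had 149860 ± 19352 normalised counts in bone marrow against 164.5 ± 26.1 in small intestine. The 16 neutrophil precursor markers, 14 of them lower in small intestine, made up 4.21% to 4.95% of each bone marrow library and 0.252% to 0.332% of each intestinal library, where Retnlg made up 96.5% to 96.9% of this sum. The 8 epithelial markers, all higher in small intestine, made up 0.000522% to 0.000901% of the bone marrow libraries, and 0.0322% in SI_11, 0.0329% in SI_10, 0.0974% in SI_7 and 0.218% in SI_6. Macrophage, erythroid, B and plasma cell and mast cell markers took at most 0.178% of the reads in any library. That was the share of B and plasma cell markers in SI_6, where eosinophil markers took 0.216%. The 10 monocyte and macrophage markers, 6 higher and 1 lower in small intestine, summed to 0.0566% to 0.0736% in bone marrow, above the eosinophil markers there. In small intestine they summed to 0.0117% to 0.0165%. No marker was at 0 in all libraries of a tissue. Neutrophil precursors also make the oxidase, and the part of other cells in the differences below was not tested. In bulk RNA, fewer cells of a type and less RNA per cell cannot be told apart.

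Of the 8 genes, 4 were higher in small intestine (Cybb, Ncf1, Cat and Padi4), 1 was lower (Rac2), and Cyba, Ncf4 and Rac1 did not pass the threshold. Over all genes 34.9% passed, 22.0% higher and 12.9% lower. Among the 16215 genes averaging 10 reads or more 63.1% passed, 34.6% higher and 28.6% lower, and 5 of 8 members is close to that share. No overlap between the tissues was seen for 7 members, Cyba being the exception, and for 34.3% of all genes. That share includes the many genes with few reads, and it was not taken for those averaging 10 reads or more. The median difference of the members was 0.61, against 0.37 over all genes and 0.12 over those averaging 10 reads or more. How the libraries were scaled mattered for the smaller differences. Only 16215 of the 38392 genes averaged 10 reads or more, so a median over all genes falls among genes with few reads. Reads fell on 19713 genes in BM_4 and on 33346 in SI_10. Centring each library on the median of all genes shifted every difference by -0.90 and left 0 members higher by limma (1, Ncf1, at an unadjusted p under 0.05) and 2 lower, while centring on genes averaging 10 reads or more shifted them by -0.06 and left 4 higher and 1 lower.

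**Figure D1:**
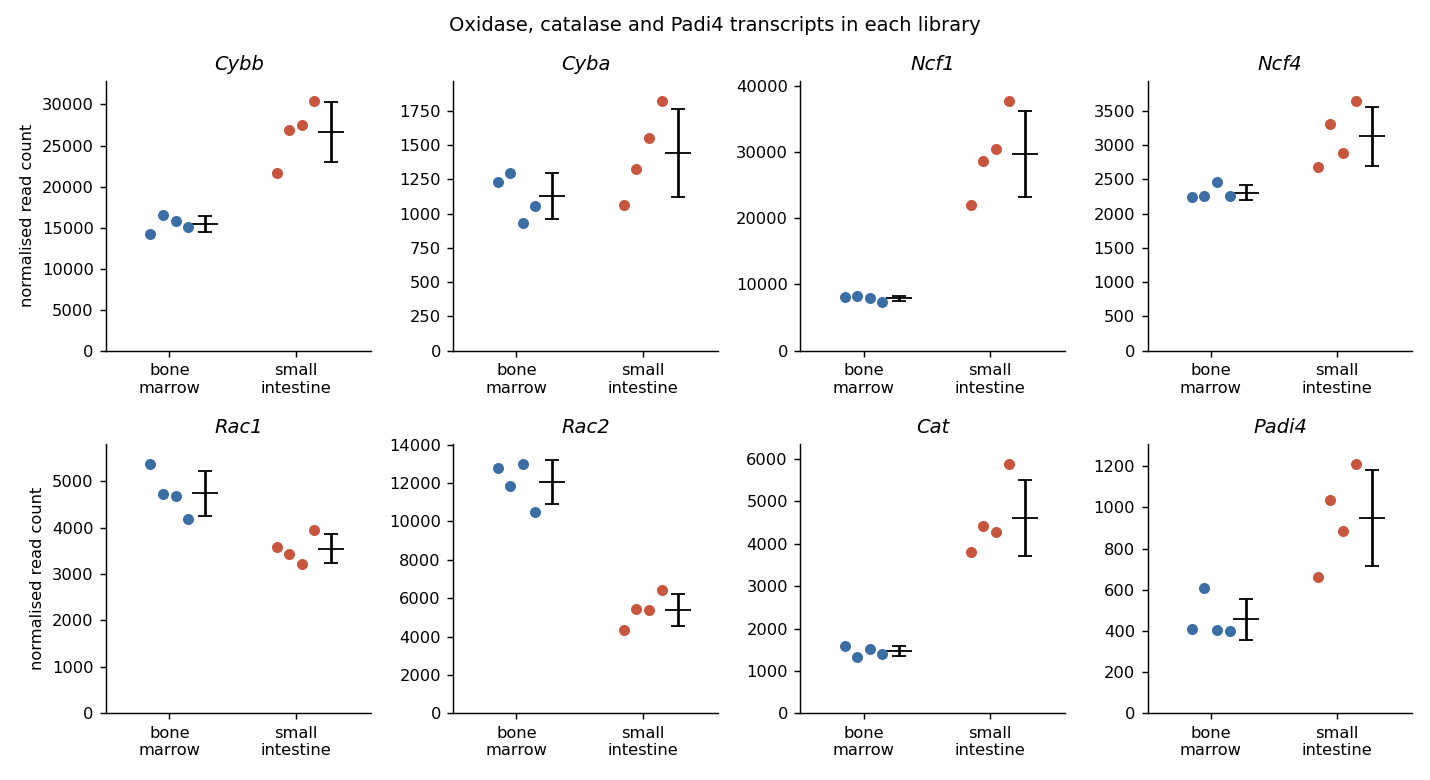
Normalised read counts (vertical axes, each starting at 0) of the 8 genes in the 4 bone marrow (blue) and 4 small intestine (red) libraries; black lines give the mean and SD of each group. Only the Cyba groups overlapped, and SI_11 was the highest intestinal library in all 8 panels.

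Cybb (ENSMUSG00000015340; GRCm38 chromosome X, 9435252 to 9487771, minus strand), which encodes the electron-carrying subunit gp91phox, had normalised counts of 14279, 16516, 15775 and 15109 in BM_1, BM_3, BM_4 and BM_5. In SI_6, SI_7, SI_10 and SI_11 it had 21709, 26929, 27451 and 30425. Every intestinal library lay above every bone marrow library, and SI_6 lay nearest to the bone marrow. The means were 15420 ± 953 and 26629 ± 3623 (SD, n = 4 each), and Cybb was 1.72-fold higher in small intestine on the deposited scale (difference 0.78 ± 0.18, 95% interval 0.36 to 1.20, limma adjusted p = 0.0107), a direction that turned to -0.12 both with median-centring over all genes and with quantile normalisation.

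Cyba (ENSMUSG00000006519; chromosome 8, 122424776 to 122432930, minus strand) encodes p22phox, the partner that stabilises gp91phox. Its normalised counts were 1230, 1298, 930.1 and 1053 in BM_1, BM_3, BM_4 and BM_5 and 1064, 1326, 1555 and 1822 in SI_6, SI_7, SI_10 and SI_11. The groups overlapped, since SI_6 lay below BM_1 and BM_3. The difference of 0.34 ± 0.23 was not called (limma adjusted p = 0.305, 95% interval -0.19 to 0.87), and the interval holds both no difference and one as large as that of Cybb. Within each library the ratio of Cyba to Cybb reads per kb of exon, which does not depend on scaling, was 0.410 ± 0.066 in bone marrow, against 0.300 ± 0.030 in small intestine. This log2 difference of -0.44 gave an exact 2-sided permutation p = 0.0571 (adjusted 0.0571 over 3 ratios, n = 4 each), where the smallest the design allows is 0.0286.

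Ncf1 (ENSMUSG00000015950; chromosome 5, 134220053 to 134229625, minus strand) encodes p47phox, the organiser that is phosphorylated when the oxidase is switched on. It had 8083, 8195, 8009 and 7301 normalised counts in BM_1, BM_3, BM_4 and BM_5. The intestinal libraries SI_6, SI_7, SI_10 and SI_11 had 21922, 28573, 30425 and 37682. All intestinal libraries were higher, and the bone marrow libraries were close together. The means of 7897 ± 405 and 29650 ± 6480 (SD, n = 4 each) made this the largest difference among the 8 genes, 3.69-fold (1.88 ± 0.21, 95% interval 1.40 to 2.37, limma adjusted p = 0.000206). Of the 3663 exon bases of Ncf1, 408 (11.1%) also lie in exons of Gtf2ird2 on the opposite strand, and the strand setting of the counts was not given in the sources used here. Gtf2ird2 was itself higher in small intestine (712 ± 84.3 against 4650 ± 716 normalised counts, difference 2.69 ± 0.20, limma adjusted p = 2.29e-05), so reads in the shared bases cannot be told apart.

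Ncf4 (ENSMUSG00000071715; chromosome 15, 78244801 to 78262580, plus strand) encodes p40phox, which binds a phosphoinositide of phagosome membranes. Its normalised counts were 2246, 2263, 2469 and 2253 in BM_1, BM_3, BM_4 and BM_5 and 2683, 3310, 2892 and 3645 in SI_6, SI_7, SI_10 and SI_11. The groups did not overlap, but the gap between BM_4 and SI_6 was small beside the spread in small intestine. The difference was 0.43 ± 0.18 (95% interval 0.02 to 0.85) and was not called (limma adjusted p = 0.104 over all genes). It did pass when SI_6 was left out (0.50, limma adjusted p = 0.0293), when SI_10 was left out (0.47, limma adjusted p = 0.0341), and when genes with a mean under 10 reads were left out. Ncf4 fell behind Ncf1 within every intestinal library: the ratio of Ncf4 to Ncf1 reads per kb was 0.504, 0.501, 0.559 and 0.560 in BM_1, BM_3, BM_4 and BM_5 and 0.222, 0.210, 0.172 and 0.175 in SI_6, SI_7, SI_10 and SI_11. This log2 difference of -1.45 gave an exact 2-sided permutation p = 0.0286 (adjusted 0.0429 over 3 ratios), the smallest these 8 libraries allow, and the bases shared with Gtf2ird2 enter it through Ncf1.

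**Figure D2:**
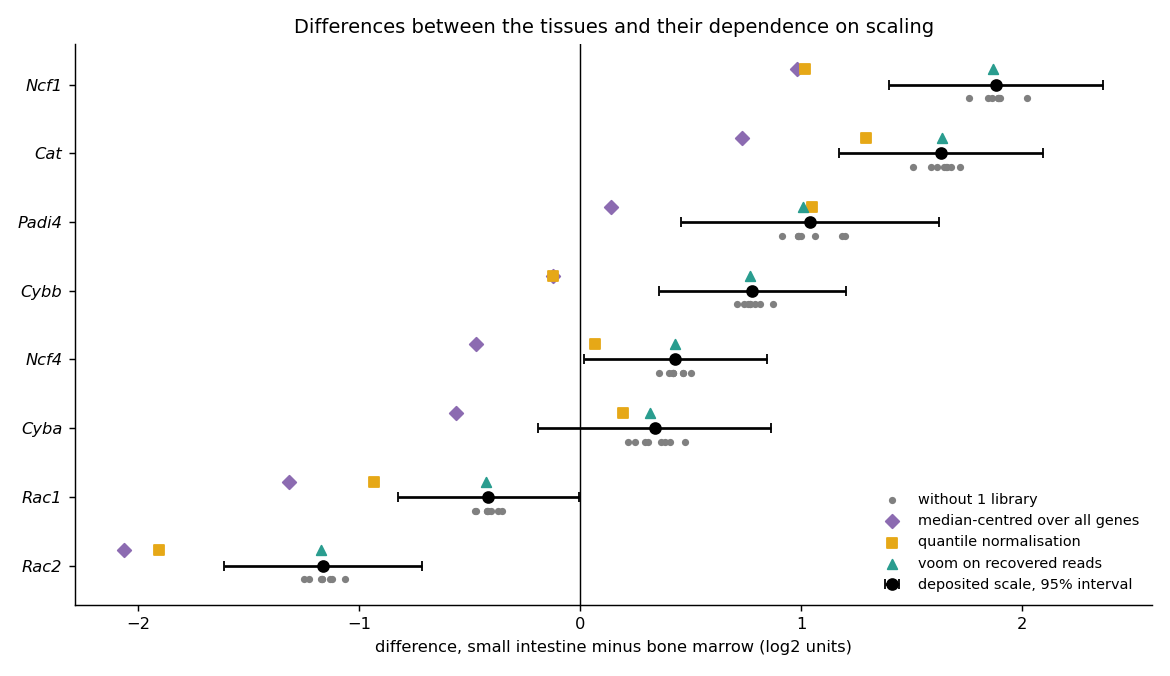
Difference of each gene between small intestine and bone marrow (horizontal axis, log2 units) on the deposited scale with its 95% interval (black), without each library in turn (grey) and under 3 other treatments of the values (coloured). Median-centring over all genes moved Cybb, Ncf4 and Cyba across 0, and quantile normalisation moved Cybb to -0.12; Ncf1, Cat and Padi4 stayed above 0 and Rac1 and Rac2 below it under all settings drawn.

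Per kb of exon, the 4 subunits Cybb, Cyba, Ncf1 and Ncf4 summed to 7039 ± 303 normalised counts in bone marrow, against 15618 ± 2872 in small intestine. Ncf1 made up 30.6% ± 0.957 of this sum in bone marrow, against 51.6% ± 1.85 in small intestine (SD, n = 4 each). The share of Cybb was 37.7% ± 1.62 and 29.6% ± 1.51, that of Cyba 15.4% ± 1.97 and 8.84% ± 0.521, and that of Ncf4 16.3% ± 1.002 and 10.03% ± 0.967. The make-up was alike between libraries of a tissue even where the sum was not, as in SI_6 (12075) and SI_11 (19083), whose Ncf1 shares were 49.6% and 53.9%.

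**Figure D3:**
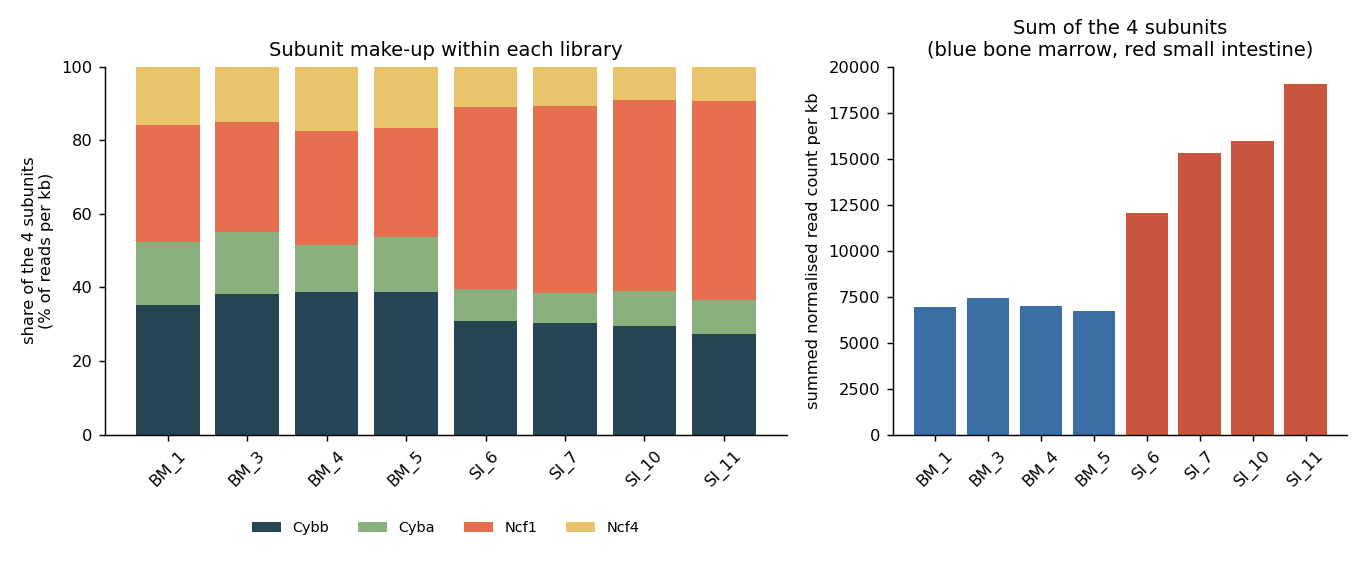
Left, share of Cybb, Cyba, Ncf1 and Ncf4 in their summed reads per kb of exon (vertical axis, %) in each library; right, the sum itself (normalised read count per kb, from 0). Ncf1 took 29.6% to 31.7% in the bone marrow libraries and 49.6% to 53.9% in the small intestine libraries.

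Rac2 (ENSMUSG00000033220; chromosome 15, 78559167 to 78572783, minus strand), the Rac protein of blood cells, had 12778, 11871, 13006 and 10485 normalised counts in BM_1, BM_3, BM_4 and BM_5. In SI_6, SI_7, SI_10 and SI_11 it had 4366, 5443, 5390 and 6421. Each intestinal library was below each bone marrow library by a wide margin. Rac2 was 2.24-fold lower in small intestine (12035 ± 1144 against 5405 ± 839, difference -1.16 ± 0.20, 95% interval -1.61 to -0.72, limma adjusted p = 0.00182), and was called lower under all 18 alternatives.

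Rac1 (ENSMUSG00000001847; chromosome 5, 143503634 to 143528036, minus strand), the Rac protein found in most cells, had 5374, 4722, 4672 and 4180 normalised counts in BM_1, BM_3, BM_4 and BM_5 and 3587, 3434, 3214 and 3958 in SI_6, SI_7, SI_10 and SI_11. The groups did not overlap, with BM_5 and SI_11 nearest to each other. The difference of -0.41 ± 0.18 (95% interval -0.82 to -0.01) was not called (limma adjusted p = 0.112), though it did without BM_5 (-0.47, limma adjusted p = 0.0232). Rac1 shares 2309 of its 4496 exon bases (51.4%) with exons of Daglb on the opposite strand. Daglb was lower in small intestine (732 ± 85.6 against 302 ± 37.5 normalised counts, difference -1.27 ± 0.19, limma adjusted p = 0.000944), and what reads of the shared bases added to either gene cannot be told apart. Identical stretches of 75 bases, the shortest read length, were shared by no transcripts of Rac1 and Rac2. The ratio of Rac2 to Rac1 reads per kb was 3.69 ± 0.247 in bone marrow, against 2.21 ± 0.303 in small intestine, a log2 difference of -0.75 (exact 2-sided permutation p = 0.0286, adjusted 0.0429 over 3 ratios, n = 4 each), and it carries the same doubt about Rac1.

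Cat (ENSMUSG00000027187; chromosome 2, 103453849 to 103485160, minus strand) encodes catalase, the peroxisomal enzyme that removes hydrogen peroxide. Its normalised counts were 1601, 1331, 1524 and 1407 in BM_1, BM_3, BM_4 and BM_5. They were 3803, 4429, 4290 and 5890 in SI_6, SI_7, SI_10 and SI_11. The lowest intestinal library was above the highest bone marrow library by more than the whole bone marrow mean. Cat was 3.10-fold higher in small intestine (1466 ± 120 against 4603 ± 899, difference 1.63 ± 0.20, 95% interval 1.17 to 2.09, limma adjusted p = 0.000345). SI_6, with the most epithelial reads, had the least Cat of the intestinal libraries, but it was also lowest there for every other member except Rac1. Without SI_6 the difference of Cat was 1.72. The part of epithelial cells in the Cat reads was not tested.

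Padi4 (ENSMUSG00000025330; chromosome 4, 140745865 to 140774236, minus strand) was the lowest of the members in each tissue. It had 412, 608, 404 and 399.8 normalised counts in BM_1, BM_3, BM_4 and BM_5 and 664, 1035, 885 and 1213 in SI_6, SI_7, SI_10 and SI_11. BM_3 stood above the other bone marrow libraries and came near SI_6 without reaching it. Padi4 was 2.06-fold higher in small intestine (456 ± 102 against 949 ± 233, difference 1.04 ± 0.25, 95% interval 0.46 to 1.62, limma adjusted p = 0.0125).

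Levels can be compared between genes only per length. In bone marrow the order per kb of exon was Rac2 (3879), Cybb (2655), Ncf1 (2156), Ncf4 (1142), Cyba (1086), Rac1 (1054), Cat (561) and Padi4 (94.3), where the ranges of Ncf4 and Cyba and of Cyba and Rac1 overlapped. In small intestine it was Ncf1 (8095), Cybb (4585), Cat (1762), Rac2 (1742), Ncf4 (1551), Cyba (1387), Rac1 (789) and Padi4 (196), where Cat and Rac2, Rac2 and Ncf4, and Ncf4 and Cyba overlapped. Rac2 thus stood at the head of the list in bone marrow and behind Ncf1 and Cybb in small intestine, and Cat stood above Rac1 in all intestinal libraries and below it in all bone marrow libraries. Among 20623 protein-coding genes ranked per kb, Ncf1 lay between the percentiles 99.8 and 99.9 in small intestine. Padi4 lay between 74.7 and 81.5 in bone marrow and between 83.4 and 89.5 in small intestine, and the remaining members lay at or above the percentile 96.3 in all libraries.

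The members moved together between the intestinal libraries. SI_11 was the highest of the 4 for 8 of 8 genes, and SI_6 the lowest for 7 of 8, with Rac1 lowest in SI_10. This order was not particular to the members. Among the related genes described below, Syk, Pik3r5, Txnrd1, Gsr, Arhgdib and Padi2 were also lowest in SI_6 and highest in SI_11. Others, such as Duox2, Ehhadh and Glrx, were highest in SI_6. The median deviation of the members from the mean of the tissue was 0.31 in SI_11 and -0.29 in SI_6 on the log2 scale, whereas genes averaging 10 reads or more had medians of 0.04 and 0.00 there. SI_6 also had the most epithelial marker reads and the lowest sum of eosinophil markers, 0.216% of the reads against 0.263% to 0.269% in the other 3. What these have to do with each other was not tested. In bone marrow, BM_3 was the highest for 4 members and BM_5 the lowest for 4. Without BM_5 and SI_6 together, a choice made after the values were seen, 5 members were higher and 2 lower.

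**Figure D4:**
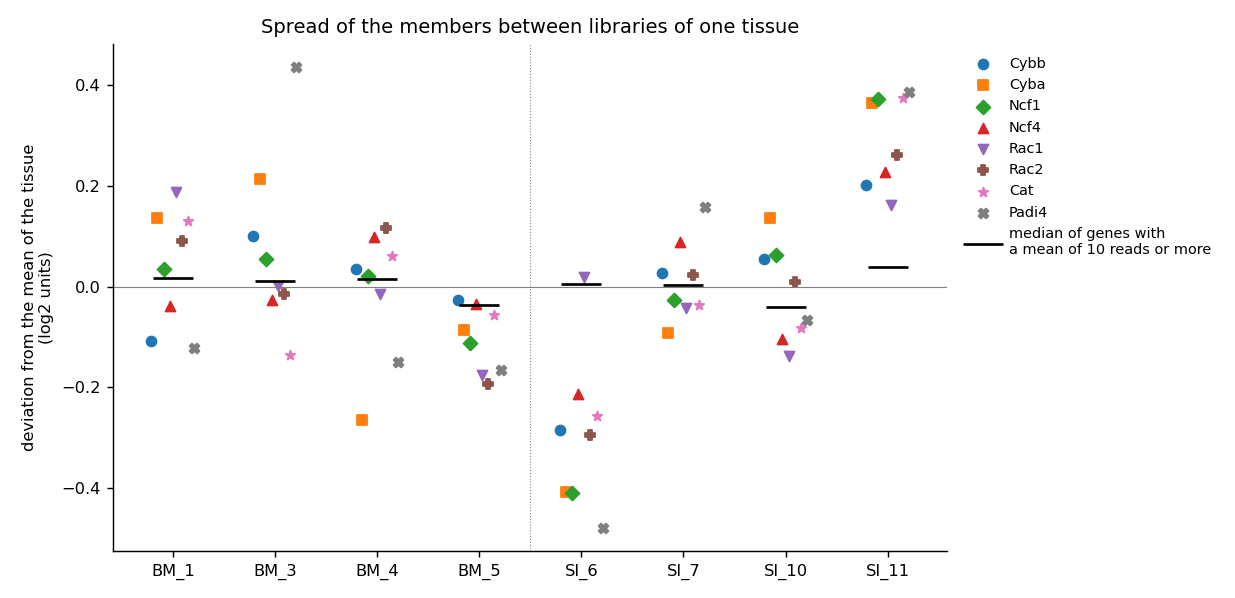
Deviation of each gene in each library from its mean over the 4 libraries of that tissue (vertical axis, log2 units; bone marrow left and small intestine right of the dotted line), with black bars for the median of genes averaging 10 reads or more. SI_6 lay low for all members except Rac1 and SI_11 lay high for all 8, while the black bars stayed between -0.04 and 0.04.

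Other genes of the pathway were followed as 8 lists with 82 genes, of which 72 averaged 10 reads or more. Of these 82 genes 31 were higher in small intestine, 26 lower and 25 not called. Over all genes 22.0% were higher and 12.9% lower, and among those averaging 10 reads or more 34.6% and 28.6%. The counts of each list below are to be read beside these shares. The median difference of the 82 was 0.37, equal to that of all genes at this rounding. With median-centring over all genes 17 were higher and 33 lower, and 5 turned from higher to a difference below 0, among them Acaa1a, Dock5, Gsr and Prkcd.

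Of 5 genes of proteins that work with the oxidase, 1 was higher in small intestine, 3 were lower and 1 was not called. The higher gene is not reported here by name. Cybc1, a chaperone needed for flavocytochrome b558, was lower (-1.07 ± 0.21, limma adjusted p = 0.00461), as were Rap1a, a small GTPase found with the flavocytochrome (-1.01 ± 0.19, limma adjusted p = 0.0032), and Hvcn1, the proton channel that balances the charge moved by the oxidase (-1.11 ± 0.19, limma adjusted p = 0.00209). Rac3 had 3.38 ± 1.92 normalised counts in bone marrow, against 1.19 ± 0.139, and was not called.

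Among 9 genes of other NADPH oxidases, 5 were higher (Nox1, Noxa1, Duox2, Duoxa1 and Duoxa2), 0 were lower by limma (also 0 at an unadjusted p under 0.05, and 0 with voom), and Nox3, Nox4, Noxo1 and Duox1 did not pass the threshold. Only 3 of the 9 reached a mean of 10 reads. Duox2, an oxidase of mucosal epithelium, had 603.6 normalised counts in SI_6, 287.1 in SI_7, 143.3 in SI_10 and 117.3 in SI_11, and 0 to 23.2 in bone marrow (difference 5.79 ± 0.90, limma adjusted p = 0.0012). Noxa1 had 100.4 in SI_6 and 17.5 to 27.7 in the other intestinal libraries. Both were highest in SI_6, the library with the most epithelial marker reads, and which cells their reads came from was not tested.

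Rac proteins are switched on by exchange factors, switched off by GTPase-activating proteins and held in the cytosol by dissociation inhibitors. Of 11 genes that regulate them, 6 were higher in small intestine (Vav2, Prex1, Dock2, Dock5, Elmo1 and the GTPase-activating Arhgap25), 4 lower (Vav1, Vav3, Tiam1 and Arhgdib), and Arhgdia was not called. The largest rise was that of Vav2, from 52.2 ± 13.4 to 842 ± 136 normalised counts (3.94 ± 0.24, limma adjusted p = 8.4e-06), and the largest fall that of Tiam1, from 2697 ± 104 to 366 ± 31.3 (-2.87 ± 0.17, limma adjusted p = 6.62e-06), both exchange factors. Arhgdib, a GDP dissociation inhibitor of blood cells, fell with Rac2, from 26716 ± 1946 to 7954 ± 1755 (-1.77 ± 0.21, limma adjusted p = 0.00027). The more widely expressed inhibitor Arhgdia had 4004 ± 337 and 3720 ± 311.

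Of 12 genes for kinases and other enzymes upstream of the oxidase, 7 were higher (Prkca, Prkcb, Prkcd, Pik3cd, Pik3r5, Syk and Pla2g4a), 2 lower (Pak1 and Mapk14), and Pak2, Pik3cg and Btk did not pass. Protein kinase C isoforms phosphorylate p47phox, and Prkca had 28.7 to 56.7 normalised counts in bone marrow, against 2527 to 2858 in small intestine (6.04 ± 0.23, limma adjusted p = 9.32e-07). Syk, a kinase downstream of Fc and integrin receptors, had 2467 ± 171 and 21052 ± 3286 (3.08 ± 0.19, limma adjusted p = 9.21e-06). Pik3r5, a regulatory subunit of phosphoinositide 3-kinase gamma, was higher by 2.61 ± 0.20 (limma adjusted p = 2.59e-05). Mapk14, the kinase p38 alpha, fell from 2991 ± 182 to 944 ± 106 (-1.66 ± 0.18, limma adjusted p = 0.000153).

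Other genes that remove superoxide or peroxide differed in both directions. Of 16, 5 were higher (Sod2, Prdx4, Prdx6, Txnrd1 and Gsr), 5 lower (Gpx1, Gpx3, Prdx3, Prdx5 and Glrx) and 6 not called. Txnrd1, which reduces thioredoxin, rose from 831 ± 64.8 to 4301 ± 580.1 normalised counts (2.36 ± 0.19, limma adjusted p = 2.87e-05). Gpx1, the abundant glutathione peroxidase, fell from 12789 ± 1465 to 4386 ± 559 (-1.54 ± 0.19, limma adjusted p = 0.000346), and Glrx from 2024 ± 213 to 345 ± 77.1 (-2.56 ± 0.22, limma adjusted p = 4.38e-05). Gsr, which reduces glutathione with NADPH, had 11700.0 to 14097 in bone marrow and 16746 to 24793 in small intestine (0.77 ± 0.20, limma adjusted p = 0.0172), a direction that turned under both median-centring over all genes and quantile normalisation.

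The peroxisome, where catalase is kept, showed more falls than rises. Of 22 genes for its assembly and fatty acid oxidation, 4 were higher (Pex11a, Ehhadh and Acaa1a among them). A further 9 were lower (Pex3, Pex7, Pex10, Pex13, Abcd3 and Scp2 among them) and 9 not called, with a median difference of -0.31. The 13 called of these 22 are close to the 63.1% called among all genes averaging 10 reads or more. Pex10, an import factor, was lower by limma (-1.57 ± 0.32, adjusted p = 0.00464), as was Scp2 (-0.96 ± 0.16, adjusted p = 0.00201). Ehhadh was the largest rise (1.88 ± 0.37, limma adjusted p = 0.00395), with 196.5 normalised counts in SI_6 and 65.2 to 95.7 in the other intestinal libraries.

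The heme peroxidases, which use the peroxide made from the product of the oxidase, were lower in 3 of 3 cases. The differences were -3.94 for Epx, -4.19 for Lpo and -9.80 for Mpo (limma adjusted p = 2.19e-05, 0.00291 and 1.01e-07), beside the fall of the neutrophil precursor markers, 1 of which is Mpo. Among the other peptidylarginine deiminases, Padi2 rose from 36.7 ± 3.23 to 221 ± 50.7 normalised counts (2.45 ± 0.22, limma adjusted p = 5.64e-05). Padi3 and Padi6 also rose (2.05 ± 0.31 and 3.19 ± 0.40, limma adjusted p = 0.000994 and 0.000379), at levels of at most 42.7 ± 4.06 and 18.8 ± 8.58. Padi1 was near the limit of detection, at 0.383 ± 0.766 and 2.76 ± 4.03, and was not called. Per kb of exon Padi4 (94.3 in bone marrow, 196 in small intestine) was the most abundant of the family, ahead of Padi2 (7.32 and 44.1).

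**Figure D5:**
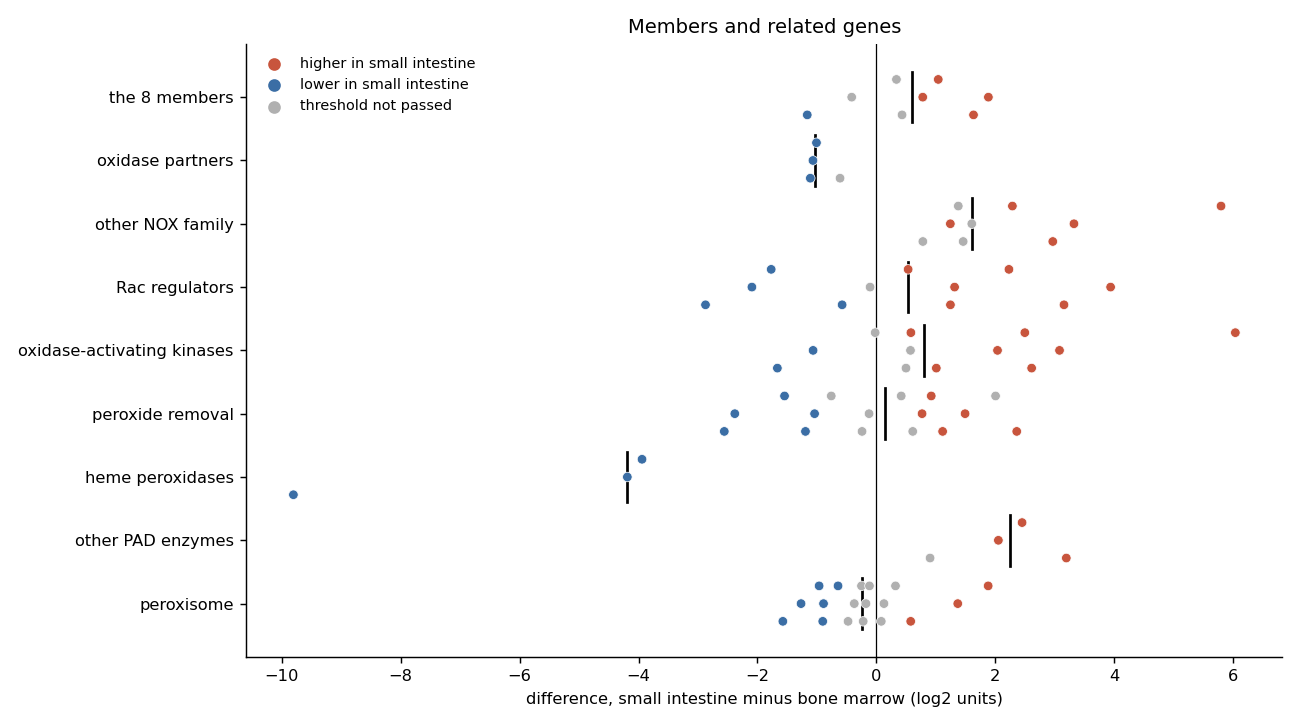
Differences of the 8 members and of 77 of the 82 related genes between small intestine and bone marrow (horizontal axis, log2 units on the deposited scale), a row for each list; colour gives the limma call and the black bar the median of the genes drawn. The 3 heme peroxidases lie between -3.94 and -9.80 and Prkca at 6.04, and centring on the median of all genes would shift every point by -0.90.

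For each member, the protein-coding gene with the most similar profile was sought among 12860 candidates, by the root mean square difference over the 8 libraries after centring each gene on its own mean. The closest were Rbm25 for Cybb (0.04 log2 units), Tmsb4x for Cyba (0.09), Furin for Ncf1 (0.06), Gsk3b for Ncf4 (0.04), Cracr2a for Rac1 (0.04), Atp6v1a for Rac2 (0.02), Wipf1 for Cat (0.07) and Ciao2b for Padi4 (0.11). Padi4, with the fewest reads, had the least close match.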

How the data were processed

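RNA from the sorted cells was amplified to cDNA, made into libraries and sequenced from single ends. The authors aligned the reads to GRCm38 (Ensembl release 86 by the methods of the study), counted them per gene with nf-core/rnaseq and deposited variance-stabilised values from DESeq2 on a log2 scale (R 4.0.3 in the submitters' processing notes). Neither aligner nor strand setting was given in the sources used here. All 38392 identifiers matched the GENCODE M21 annotation, and 0 columns of values were left out. The column names gave each library's tissue but matched no single sample.

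The deposited log2 values were inverted from their shared lowest value, 0.92971568. Multiplied by size factors of 0.721 to 1.53, they were whole reads within 0.05 for 100% of genes in each library (largest deviation 0.00616). Libraries within a tissue differed beyond counting noise.

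Genes were compared by limma 3.58.1 (R 4.3.3), 2-sided, from the deposited values of the 8 libraries, without filter or covariate and with a prior variance common to all genes, in place of the authors' count model, since the unit is log2. Ratios within a library were compared by exact 2-sided permutation of the tissue labels (70 assignments). Counts per kb used the union of exons. Python 3.11.15 was used for the remainder (pandas 2.3.3, numpy 2.4.6, matplotlib 3.10.9). Alternatives were other scalings (median-centring, quantile normalisation), filters on low reads, limma trend, voom on the recovered reads, pseudocounts of 1 and 5, and leaving out libraries. The fit was tested on simulated reads for small intestine against bone marrow over 38392 genes. At means of at least 200 normalised counts it recovered 43 of 44 genes changed 4-fold and 14 of 47 changed 2-fold. It called 0 of 7284 unchanged genes. The simulation gave all genes the same dispersion, changed few genes, as many up as down, and had no library effects beyond size. In the real libraries 13402 genes were called, so these rates need not hold for them.

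The members and gene lists were chosen with earlier results of these data known. Named were all members, the genes of lists of 5 or fewer, and from longer lists the largest rise, the largest fall and the 2 most abundant per kb, with the closest profile to each member. A few genes of the lists enter the counts but are not reported here by name. Daglb, Gtf2ird2 and the marker genes given with values were chosen after their values were seen.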

Additional observations from a re-analysis of the deposited data

Results flagged for a closer look

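For each gene and tissue the distance from the highest or lowest library to its neighbour was divided by the range of the 4 libraries, and is given here where it passed the tabulated 95% limit of Dixon's test (about 0.83). This held for 6 of 96 groups examined, and chance gives about 1 in 20. Among the members it held for Ncf4 in bone marrow, where BM_4 was the highest (gap over range 0.919), and for Padi4 in bone marrow, where BM_3 was the highest (0.927). Without BM_3 the difference of Padi4 was 1.19 instead of 1.04, and without BM_4 that of Ncf4 was 0.46 instead of 0.43. Among the related genes it held for Scp2, lowest in SI_10 (0.835), and for Padi1 and Padi6 in bone marrow, highest in BM_1 and BM_5 (1 for each), where the other 3 libraries had 0 reads. The summed eosinophil markers were lowest in SI_6 (0.896), the library in which 7 of the 8 members were also lowest in small intestine.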

How the results depend on the processing

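No paired analysis was possible because no number is common to libraries of both tissues. Centring each library on the median of all genes gave -0.12 for Cybb, -0.56 for Cyba and -0.47 for Ncf4, reversing them, and 0.98 for Ncf1, 0.73 for Cat and 0.14 for Padi4, no longer called; it gave -1.31 for Rac1, now called, with 0 members and 17 related genes higher. All genes shift by -0.90 under this setting, whose median falls among genes with few reads. Quantile normalisation reversed Cybb to -0.12 and called Rac1 (-0.93); the cause was not tested. Ncf4 was also called with the filter of 10 reads, limma trend and a pseudocount of 5 (0.43 each), voom (0.43) and without BM_5 and SI_6 (0.49), and Rac1 likewise (-0.41 each, voom -0.42, and -0.48). These 7 settings gave 2 members lower. Without each library in turn, the differences ranged from 0.36 to 0.50 for Ncf4 and from -0.47 to -0.35 for Rac1, and 1 to 2 members were lower (2 without BM_5). The log2 ratios ranged from -1.52 to -1.40 (Ncf4 to Ncf1) and from -0.80 to -0.64 (Rac2 to Rac1), and without BM_5 and SI_6 they were -1.49 and -0.65. The exact test cannot pass 0.05 once a library is left out (0.0571 is the smallest), so these losses say nothing of stability. Depth limits no member, with at least 422 reads in a library, but does limit Rac3, Padi1 and most other NADPH oxidase genes.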
